A study of Mus musculus with 6 samples.

Results

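This account concerns enzymes and regulators of glucose metabolism and oxygen sensing in human leukemic cells grown in mice. The set was given by name: 35 genes of glycolysis, the pentose phosphate pathway, the oxidation of pyruvate in mitochondria, and the HIF1A oxygen sensor. Of these, 33 were among the 13892 gene symbols of the deposited table, and ALDOC and ENO2 were not analysed here. All 33 passed the low-value filter (at least 1 CPM, reads scaled to a normalized library size, in at least 3 libraries). PKLR passed it through its bulk libraries alone, so its difference between populations was favoured by the filter.

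The leukemia was human acute myeloid leukemia (AML) that arose in NSG mice, hosts lacking a working immune system, from transduced human stem cells carrying NPM1c, the cytoplasmic mutant of nucleophosmin. Marrow was taken from 3 moribund mice, each from a separate transduction, and 2 populations were sorted from each. LSC (leukemic stem cells) were GFP+, CD33+ and CD123+, and bulk leukemic cells were GFP+ and CD33+, with no statement on CD123. GFP stood in for NPM1c expression, and all 6 libraries carry NPM1c. A shared replicate number means a shared mouse. The ages of the mice are not given in the sources used here, and LSC is the name of a gate, not of a functional assay.

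Glycolysis splits glucose into pyruvate in the cytosol, with hexokinase, phosphofructokinase and pyruvate kinase as its controlled steps. Pyruvate is then reduced to lactate or oxidised by pyruvate dehydrogenase, and the pentose phosphate pathway branches off to make NADPH and ribose. HIF1A is the transcription factor that turns on many of these genes at low oxygen; when oxygen is plentiful, EGLN prolyl hydroxylases mark it and VHL directs its destruction.

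Reads were recovered from the deposited values and summed over the deposited genes, which gave 10669560 to 14933494 per library. Of these reads, 10 MTRNR2L genes, which resemble mitochondrial ribosomal RNA, took 27.2% to 70.0%. Bulk replicate 1 had the highest such share and kept 3423878 reads outside these genes, where the remaining 5 libraries kept 6132431 to 9571165. IL3RA, which encodes the sort marker CD123, had 139.5, 48.0 and 135 CPM in LSC and 1.54, 2.12 and 2.37 CPM in bulk. CD33 had 6.80, 8.05 and 1.17 CPM in LSC and 4.45, 8.21 and 13.1 CPM in bulk (adjusted p = 0.512). Marker lists of other cell programmes were summed in each library. The summed level of 12 plasmacytoid dendritic cell markers was 1609 to 2770 CPM in LSC and 131 to 399 CPM in bulk. Summed levels of 10 proliferation genes were 949 to 1591 CPM in LSC and 3742 to 7478 CPM in bulk, those of 7 of 8 monocytic markers 123 to 351 CPM in LSC and 698 to 1108 CPM in bulk, and those of 9 B lineage markers 30.2 to 58.0 CPM in LSC and 149 to 1190.2 CPM in bulk. These 4 sums did not overlap between the populations. The sums of 14 of 15 erythroid markers (32.2 to 265 CPM in LSC, 263 to 1171 CPM in bulk), 12 granulocytic markers (162 to 1280 CPM in LSC, 341 to 3937 CPM in bulk) and 7 eosinophil and basophil markers (104 to 327 CPM in LSC, 44.1 to 1068 CPM in bulk) overlapped. So did those of 5 of 7 T and NK cell markers (103 to 138 CPM in LSC, 78.4 to 108 CPM in bulk) and 5 of 6 megakaryocytic markers (20.3 to 40.2 CPM in LSC, 13.2 to 24.7 CPM in bulk). Within each mouse, the erythroid and granulocytic sums were lower in LSC, and the T and NK cell and megakaryocytic sums were higher. The eosinophil and basophil sum was lower in LSC in mice 1 and 2 and higher in mouse 3. No marker in the table lacked reads in either population; the erythroid factor KLF1 and the monocytic marker CD14 were not analysed here. In sorted libraries, fewer cells of a type cannot be told apart from less RNA per cell, and the part of these programmes in the results that follow was not tested.

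The largest changes between LSC and bulk lay in a few regulators and isozymes. Members that passed no threshold with 3 libraries per population are not shown to be unchanged. PFKFB2, a fructose 2,6-bisphosphate producing enzyme that drives phosphofructokinase, was 6.60-fold higher in LSC, and EGLN3, the inducible prolyl hydroxylase, was 19.9-fold higher. PKLR, a pyruvate kinase found in liver and erythrocytes, was nearly absent from LSC. These 3 passed limma's test over 13755 genes without the pairing by mouse (Benjamini-Hochberg adjusted p under the threshold of 0.05). Thus 2 of 33 members rose (6.06%, against 2.71% of all genes tested) and 1 fell (3.03%, against 1.33%). The 1 is PKLR, which entered the test through its bulk libraries alone, so nothing is read from the second share. At an unadjusted p under 0.05 there were 9 members (27.3%, against 20.2% of all genes tested).

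With the mouse as a block in the model, 3 members were higher (9.09%, against 8.25% of all genes tested) and 7 lower (21.2%, against 7.71%). The 7 include PKLR, which entered through its bulk libraries alone, so the filter raised their share. The block added VHL on the higher side and HK1, HK2, PKM, PDK1, TKT and HIF1A on the lower side. The median log2 change of the 33 members was -0.42, with 11 positive and 22 negative values, beside -0.0036 for all genes tested. It was -0.33, -0.48 and -0.55 in mice 1, 2 and 3, and moved to -0.10 without LSC replicate 3. The LSC libraries lay wholly above the bulk libraries for 4 members (12.1%, against 13.2% of all genes) and wholly below them for 5 (15.2%, against 11.9%), shares near those of all genes. PKLR was among the 5.

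**Figure D1:**
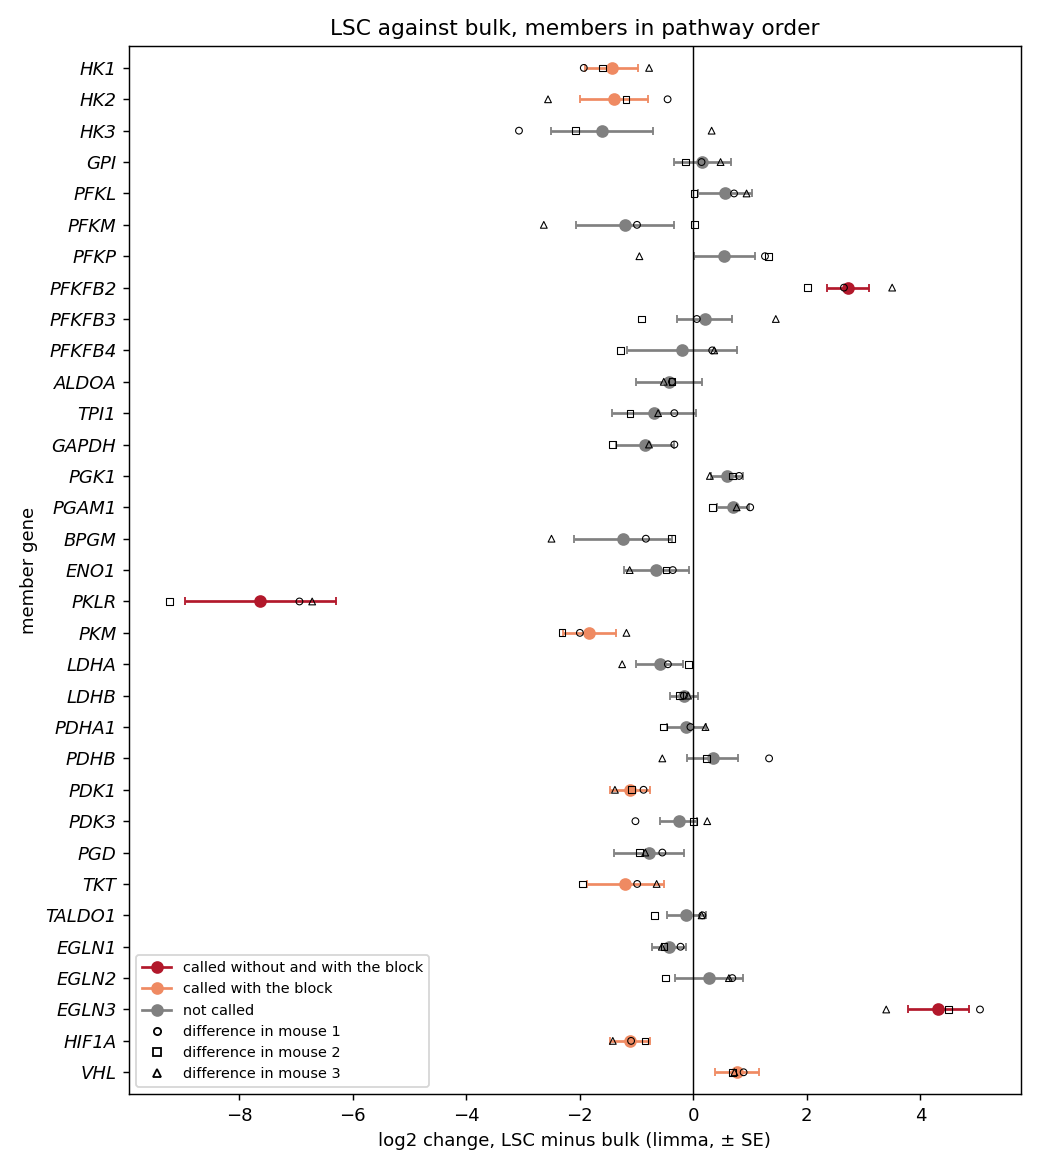
Log2 change of each of the 33 members, LSC minus bulk, with genes from the top in pathway order. Filled points are limma estimates with their SE and open symbols are the differences within each mouse; EGLN3 and PFKFB2 stand to the right and PKLR far to the left, at log2 changes of 4.32, 2.72 and -7.63.

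Hexokinases phosphorylate glucose on entry and commit it to the cell. HK1, the broadly expressed form, had 6.72, 8.18 and 5.47 CPM in LSC replicates 1 to 3 and 25.7, 24.9 and 9.40 CPM in bulk replicates 1 to 3. Every LSC library lay below every bulk library. The log2 change was -1.44 (SE 0.47, limma adjusted p = 0.131), which passed with the block (0.0257) and without bulk replicate 3 (0.0453).

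HK2, the inducible form that binds mitochondria, had 38.5, 26.6 and 6.49 CPM in LSC and 52.7, 60.5 and 38.4 CPM in bulk. LSC replicate 1 just exceeded bulk replicate 3, so the groups overlapped, while each LSC library lay below the bulk library of its own mouse. The log2 change was -1.40 (SE 0.60, limma adjusted p = 0.227, 0.0379 with the block), and it shrank to -0.63 without LSC replicate 3. HK3, the form of myeloid cells, was a low gene, with 0.369, 1.71 and 1.60 CPM in LSC and 3.25, 7.28 and 1.28 CPM in bulk. Its LSC value was lower in mice 1 and 2 and higher in mouse 3 (adjusted p = 0.346, 0.198 with the block). In bulk, HK3 and the granulocytic marker sum were both lowest in mouse 3; in LSC, HK3 was lowest in mouse 1 and the marker sum in mouse 3. HK1, HK2 and HK3 all had negative changes under each of the alternative scalings.

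Phosphofructokinase makes the committed step of glycolysis, and none of its 3 subunit genes passed either fit. PFKL, the liver type, had a log2 change of 0.56 (SE 0.47) and PFKP, the platelet type, one of 0.54 (SE 0.54). PFKP was higher in the LSC than in the bulk library of mice 1 and 2, with 22.6 and 32.0 CPM in LSC against 9.42 and 12.8 CPM in bulk. In mouse 3 the order was turned, with 7.44 CPM for LSC and 14.4 CPM for bulk. PFKM, the muscle type, had 0.365 to 3.36 CPM in LSC and 2.23 to 3.30 CPM in bulk.

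PFKFB enzymes set the level of fructose 2,6-bisphosphate, the most potent activator of phosphofructokinase. PFKFB2, the form known from heart, had 130.4, 99.2 and 115 CPM in LSC and 20.7, 24.6 and 10.1 CPM in bulk. All LSC libraries lay far above all bulk libraries. Its mean was 115 ± 15.6 CPM in LSC and 18.5 ± 7.49 CPM in bulk (SD, n = 3 each), and the difference was 2.72 log2 units (SE 0.38, limma adjusted p = 0.00571, 0.00107 with the block).

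The call of PFKFB2 held in 17 of 18 alternatives and was lost without both libraries of mouse 1 (adjusted p = 0.105), where the log2 change was 2.76. PFKFB3, the inducible form of proliferating and hypoxic cells, did not pass, with 10.7, 10.3 and 16.0 CPM in LSC and 10.3, 19.3 and 5.82 CPM in bulk. PFKFB4, a form known from testis and tumours, lay at 0.583 to 2.81 CPM in LSC and 0.448 to 2.23 CPM in bulk and did not pass. The PFKFB3 change was 0.20 (adjusted p = 0.846) and the PFKFB4 change was -0.19 (adjusted p = 0.928).

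**Figure D2:**
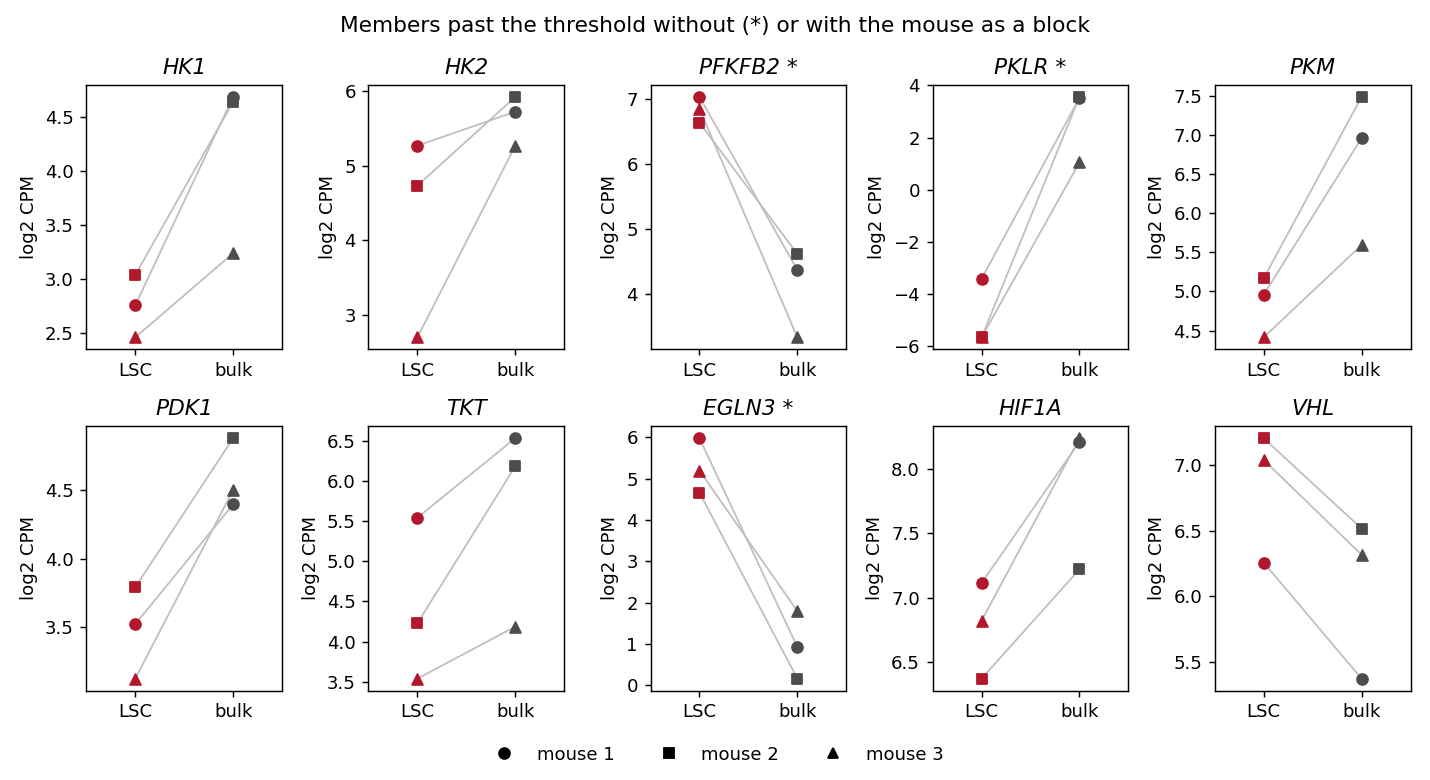
Log2 CPM in each library for the 10 members past the threshold without (star) or with the mouse as a block, LSC in red on the left and bulk in grey on the right of each panel, with a line joining the libraries of each mouse. The vertical axes differ between panels and do not start at 0; all lines of EGLN3, PFKFB2 and VHL run down to bulk and all lines of the other 7 genes run up.

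The enzymes between phosphofructokinase and pyruvate kinase, with GPI before them, gave no call in either fit. ALDOA (aldolase), TPI1 (triosephosphate isomerase), GAPDH and ENO1 (enolase) had log2 changes of -0.42, -0.69, -0.85 and -0.66, each negative in all 3 mice. GAPDH, which yields the NADH of glycolysis, had 50.8, 81.6 and 37.0 CPM in LSC and 64.0, 219 and 63.7 CPM in bulk. The overlap came from LSC replicate 2, which lay above bulk replicates 1 and 3. Its adjusted p was 0.383, and 0.0530 with the block.

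PGK1 and PGAM1 leaned the other way. PGK1, the first ATP-yielding enzyme, had 115, 144 and 104 CPM in LSC and 65.7, 89.9 and 84.6 CPM in bulk. PGAM1, phosphoglycerate mutase, had 78.8, 67.0 and 65.1 CPM in LSC and 39.4, 52.8 and 38.4 CPM in bulk. All LSC libraries lay above all bulk libraries for both genes. Neither passed the test, with adjusted p of 0.266 for PGK1 and 0.204 for PGAM1 (0.0858 and 0.0716 with the block).

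GPI (glucose-6-phosphate isomerase) had 96.5, 183 and 77.5 CPM in LSC and 87.3, 202 and 55.6 CPM in bulk. It differed by 0.16 log2 units (adjusted p = 0.881). BPGM, which makes the 2,3-bisphosphoglycerate of red cells, had 3.25, 6.85 and 0.583 CPM in LSC and 5.82, 8.98 and 3.39 CPM in bulk (adjusted p = 0.454). Summed over 18 enzymes from hexokinase to lactate dehydrogenase, levels were 888, 1150 and 813 CPM in LSC and 1007, 1518 and 1068 CPM in bulk, so the populations overlapped. Each LSC sum lay below the bulk sum of its own mouse. Several of these enzymes have close pseudogene or retrogene copies that can share reads, so their values are uncertain to that extent; PGAM4, a copy of PGAM1, held 0.887 to 4.23 CPM in LSC and 0.342 to 3.71 CPM in bulk.

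Pyruvate kinase makes pyruvate and ATP, and both of its genes were lower in LSC, PKM with the block only. PKLR had 1 read over the 3 LSC libraries, in replicate 1, and 238 over the 3 bulk libraries. In CPM this was 0.0739, 0 and 0 in LSC and 11.5, 11.8 and 2.05 in bulk. Bulk over LSC, the ratio of pooled reads was 308 (exact 95% counting interval 54.7 to 12202, counting error only), and the limma adjusted p was 0.0165. The fitted PKLR log2 change of -7.63 rests on the small prior of the deposited values and was -2.94 with a pseudocount of 1 CPM.

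PKLR is an erythroid gene in marrow, and the erythroid marker sums followed the same order within bulk: 1084, 1171 and 263 CPM in replicates 1, 2 and 3. In LSC those sums were 132, 265 and 32.2 CPM. The sums of LSC replicate 2 (265 CPM) and bulk replicate 3 (263 CPM) were close, with PKLR at 0 and 2.05 CPM. Of 14 erythroid markers tested, 2 fell in LSC (1.33% of all genes did), or 11 with the block (7.71% of all genes). The part of erythroid cells in the PKLR difference was not tested. The PKLR call was lost without bulk replicate 1 (adjusted p = 0.202), bulk replicate 2 (0.169), or both libraries of mouse 1 (0.190) or mouse 2 (0.152), at log2 changes of -7.97 to -6.83.

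PKM, the pyruvate kinase of most tissues, had 31.0, 35.9 and 21.3 CPM in LSC and 124, 179 and 48.2 CPM in bulk. Every LSC library lay below every bulk library. The log2 change was -1.83 (SE 0.47), with an adjusted p of 0.0682 without the block and 0.00334 with it. It also passed with a pseudocount of 1 CPM (0.0445) or 5 CPM (0.0453), without bulk replicate 3 (0.0113) and without both libraries of mouse 3 (0.0217). The table sums all transcripts of a gene, so the M1 and M2 splice forms were not separated.

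Lactate dehydrogenase turns pyruvate into lactate. LDHA, the form rich in glycolytic tissue, had 97.6, 231 and 139 CPM in LSC and 133, 244 and 331 CPM in bulk (log2 change -0.59, adjusted p = 0.459). LDHB, the form of oxidative tissue, was steady across libraries, with 294, 268 and 324 CPM in LSC and 330.3, 317 and 346 CPM in bulk. The groups overlapped, and its log2 change was -0.17 (SE 0.24, adjusted p = 0.732).

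Inside mitochondria, pyruvate is oxidised by pyruvate dehydrogenase, which PDK kinases switch off. The E1 subunit genes PDHA1 and PDHB had log2 changes of -0.12 (SE 0.35) and 0.34 (SE 0.45) and did not pass. PDK1, a HIF1A target and inhibitor of the complex, had 11.5, 13.8 and 8.68 CPM in LSC and 21.1, 29.5 and 22.6 CPM in bulk. Every LSC library lay below every bulk library, and its log2 change was -1.12 (SE 0.35, adjusted p = 0.114, 0.0307 with the block). PDK3, another kinase of this family, had 39.8, 64.5 and 79.1 CPM in LSC and 80.8, 64.6 and 66.7 CPM in bulk, with no common direction among the mice (adjusted p = 0.691).

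Of the pentose phosphate enzymes, PGD makes NADPH, and TKT and TALDO1 exchange carbon units with glycolysis. TKT (transketolase) had 46.6, 18.7 and 11.6 CPM in LSC and 92.5, 72.5 and 18.2 CPM in bulk. Levels in mouse 3 were the lowest in both populations, and within each mouse LSC was lower. The log2 change was -1.20 (SE 0.67, adjusted p = 0.350, 0.0294 with the block); without LSC replicate 3 or bulk replicate 1 it was -0.75.

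PGD had 25.2, 53.8 and 13.9 CPM in LSC and 36.8, 104 and 25.0 CPM in bulk, lower in LSC in 3 of 3 mice without a call (adjusted p = 0.504, 0.0564 with the block). TALDO1 (transaldolase) had 31.0, 21.4 and 21.8 CPM in LSC and 27.7, 34.2 and 19.7 CPM in bulk, with a log2 change of -0.12 (adjusted p = 0.865).

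Among the oxygen sensing genes, the EGLN hydroxylases behaved differently from one another. EGLN3, itself induced by HIF in many cell types, had 63.0, 25.3 and 36.6 CPM in LSC and 1.88, 1.10 and 3.45 CPM in bulk. All LSC libraries lay far above all bulk libraries. Its mean was 41.6 ± 19.4 CPM in LSC and 2.15 ± 1.20 CPM in bulk (SD, n = 3 each), with a log2 change of 4.32 (SE 0.53, limma adjusted p = 0.00336, 0.000446 with the block).

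The EGLN3 call held in 17 of 18 alternatives and was lost without both libraries of mouse 1 (adjusted p = 0.0982, log2 change 3.95). Bulk held only 11, 13 and 54 EGLN3 reads, and the log2 change ran from 2.64 to 4.77 over the 18 alternatives. EGLN1, the main oxygen sensor of most cells, had 31.5, 23.3 and 21.4 CPM in LSC and 36.8, 33.3 and 31.4 CPM in bulk (log2 change -0.43, SE 0.30, adjusted p = 0.458). EGLN2 had 5.25, 2.54 and 2.48 CPM in LSC and 3.25, 3.56 and 1.60 CPM in bulk (adjusted p = 0.828).

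HIF1A had 139, 82.7 and 113 CPM in LSC and 296, 149 and 302 CPM in bulk. All LSC libraries lay below all bulk libraries, and the mouse 2 library was the lowest of each population. The log2 change was -1.12 (SE 0.35), with an adjusted p of 0.118 without the block and 0.00805 with it. VHL had 76.6, 148 and 132 CPM in LSC and 41.4, 91.6 and 79.8 CPM in bulk. The groups overlapped through mouse 1, the lowest in each, but the within-mouse differences were close together, at 0.89, 0.69 and 0.72 log2 units. Its log2 change was 0.77 (SE 0.39, adjusted p = 0.304, 0.0336 with the block). HIF1A protein is controlled mainly by its stability, which was not measured.

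Ratios between related members within a library do not depend on how libraries are scaled. Of 14 pairs planned, 12 had both genes in the table. The populations did not overlap in 4 of the 12 ratios. No share over ratios of other gene pairs was computed, so nothing is read from this count. Of all single genes tested, LSC lay wholly above bulk for 13.2% and wholly below for 11.9%. The EGLN3 to EGLN1 ratio was 26.9-fold higher in LSC, with log2 ratios of 0.63 ± 0.46 in LSC and -4.12 ± 0.87 in bulk (SD, n = 3 each). The PFKFB2 to PFKFB3 ratio was 5.74-fold higher in LSC, at 3.24 ± 0.38 in LSC and 0.72 ± 0.34 in bulk. The EGLN2 to EGLN1 ratio was 1.63-fold higher, at -2.96 ± 0.33 in LSC and -3.66 ± 0.55 in bulk. This separation was narrow: in mouse 2 the log2 ratios were -3.19 in LSC and -3.22 in bulk. EGLN2 held 19, 42 and 25 reads in bulk replicates 1 to 3.

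The PKLR to PKM log2 ratio was -9.76 ± 1.26 in LSC and -3.97 ± 0.56 in bulk, where the LSC value rests on a single PKLR read and on the small prior of the deposited values. It turned to a difference of 0.36 with a pseudocount of 5 CPM, which lies above the PKLR level in LSC. Each of the 4 had the smallest two-sided exact permutation p that 3 libraries against 3 can give, 0.1, and 0.3 after adjustment over the 12 pairs, so none could pass 0.05. The ratios HK2 to HK1 and PFKP to PFKL differed by 0.04 and -0.01 log2 units between populations (exact permutation p = 1 and 0.9). Ratio levels are not per transcript length, and only their differences between populations are read.

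**Figure D3:**
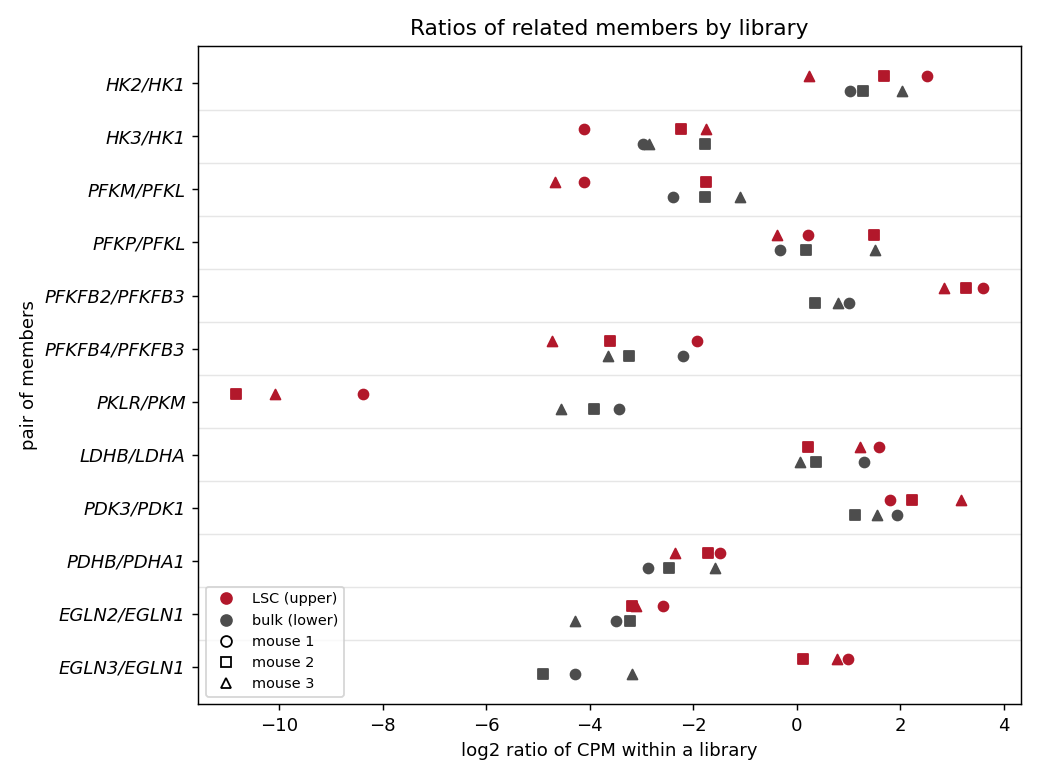
Log2 ratio of the CPM of 2 related members within each library, for 12 pairs, with LSC in the upper red row and bulk in the lower grey row of each pair and a symbol for each mouse. LSC and bulk are separate for PFKFB2/PFKFB3, PKLR/PKM, EGLN2/EGLN1 (narrowly) and EGLN3/EGLN1 and overlap in the other 8 pairs.

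The spread of each member was split into shares for mouse and population. Mouse has 3 levels and population 2, which by itself favours a larger share for mouse. The share of the sum of squares of log2 CPM lying between mice exceeded that between populations for 20 of 33 members, and the median shares were 28.0% for population and 45.5% for mouse. Over all genes tested these medians were 26.8% and 43.8%. Population had the larger share for 39.4% of members and 39.5% of all genes tested. Population took 92.7%, 91.8% and 92.1% of the sum of squares for EGLN3, PFKFB2 and PKLR. Mouse took 94.9%, 92.0% and 86.3% for GPI, ALDOA and TPI1.

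The members ranked the mice in a common way, a pattern noticed after the values were seen and given without a test. The mouse 3 library was the lowest of its population, in LSC and in bulk alike, for 17 of 33 members (51.5%, against 17.4% of all genes tested). These were HK1, HK2, GPI, PFKL, PFKFB4, ALDOA, TPI1, GAPDH, PGAM1, BPGM, ENO1, PKM, PDHA1, PGD, TKT, EGLN1 and EGLN2. The mouse 2 library was the highest in both populations for 12 members (36.4%, against 18.6%). LSC replicate 3 also had the most genes with no read (262, against 51 to 143 in the other libraries), and the granulocytic, erythroid, and eosinophil and basophil marker sums were each lowest in mouse 3 in both populations. The part of these in this ranking was not tested.

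Within mice, LSC was lower than bulk in 3 of 3 for 16 members (48.5%, against 25.8% of all genes tested) and higher in 3 of 3 for 6 (18.2%, against 27.3%). PKLR, which entered through its bulk libraries alone, was among the 16. The 6 were PFKFB2, PFKL, PGK1, PGAM1, EGLN3 and VHL. For PFKL the mouse 2 difference was 0.01 log2 units. The members share reads of the same 6 libraries, so these counts are not independent across genes.

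Genes next to these pathways were followed in 7 lists, all measured in the same fit. In the tricarboxylic acid cycle 1 of 22 genes tested rose and none fell (2.71% and 1.33% of all genes tested did), with a median log2 change of -0.23. The gene was IDH3A, the catalytic subunit of the NAD-linked isocitrate dehydrogenase. It had 297, 246 and 252 CPM in LSC and 27.4, 36.2 and 33.5 CPM in bulk, an 8.22-fold difference (log2 change 3.04, SE 0.26, limma adjusted p = 0.000638). The call held in all 18 alternatives. IDH3B and IDH3G, its partner subunits, did not pass, with log2 changes of 0.70 and -0.39.

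No gene of the other 6 lists passed limma's test without the block, nor with voom on recovered reads. Of 14 glucose, lactate and pyruvate carrier genes 6 had an unadjusted p under 0.05 (20.2% of all genes did), and with the block 4 were higher and 2 lower (8.25% and 7.71% of all genes). SLC2A8, an intracellular glucose transporter, had 5.84, 5.14 and 6.35 CPM in LSC and 0.685, 1.36 and 0.128 CPM in bulk (adjusted p = 0.0646, 0.0236 with the block). Its LSC libraries met the low-value filter by themselves, so the filter favoured its difference, and it is among the 4. Bulk held 4, 16 and 2 SLC2A8 reads, and its log2 change of 3.46 fell as low as 0.92 over the alternatives. SLC2A6 had 26.4, 30.2 and 7.73 CPM in LSC and 2.74, 5.50 and 3.77 CPM in bulk (adjusted p = 0.0670, 0.0134 with the block). SLC2A11 averaged 23.1 ± 8.31 CPM in LSC and 8.10 ± 2.80 CPM in bulk (SD, n = 3; limma adjusted p with the block 0.0126). SLC16A1, the lactate carrier MCT1, averaged 2.11 ± 0.590 CPM in LSC and 7.67 ± 2.58 CPM in bulk (n = 3; limma adjusted p with the block 0.0300). SLC2A1 and SLC2A3, the main glucose carriers of blood cells, had log2 changes of 0.71 and -0.59 and passed in neither fit.

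Of 19 HIF target genes outside glycolysis, 3 had an unadjusted p under 0.05, a smaller share than the 20.2% of all genes, and the median log2 change was -0.31. With the block 2 were higher and 2 lower, near the 8.25% and 7.71% of all genes. DDIT4, an inhibitor of mTOR signalling, and NDRG1, a stress response gene, had log2 changes of 2.75 and 2.26. Their limma adjusted p was 0.150 and 0.146, or 0.00404 and 0.0354 with the block. The NDRG1 change was 1.16 without both libraries of mouse 3. VEGFA, the angiogenic factor, and BNIP3L, a mitophagy receptor that is also active in red cell maturation, had changes of -1.85 and -1.02. Their limma adjusted p was 0.349 and 0.104, or 0.0107 and 0.0182 with the block. The populations overlapped for DDIT4 and VEGFA. EGLN3, a member of the same response, lay on the higher side with DDIT4 and NDRG1, and PDK1 on the lower side.

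The remaining lists gave few calls. Of 16 other glycolysis and branch enzymes 4 had an unadjusted p under 0.05, near the 20.2% of all genes, and with the block ADPGK, an ADP-dependent glucokinase, was higher (log2 change 1.03, adjusted p 0.0234) and PYGL, a glycogen phosphorylase, lower (-1.46, 0.0370). Of 10 genes of the pyruvate dehydrogenase complex and its regulators 1 had an unadjusted p under 0.05. It was PDHX, a structural subunit, with 10.1, 4.63 and 7.51 CPM in LSC and 20.2, 15.6 and 16.3 CPM in bulk (adjusted p = 0.0306 with the block). Of 10 other pentose phosphate enzymes and of 10 other oxygen sensing factors 1 each had an unadjusted p under 0.05, and none passed with the block; each of these 3 lists lay below the 20.2% of all genes.

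**Figure D4:**
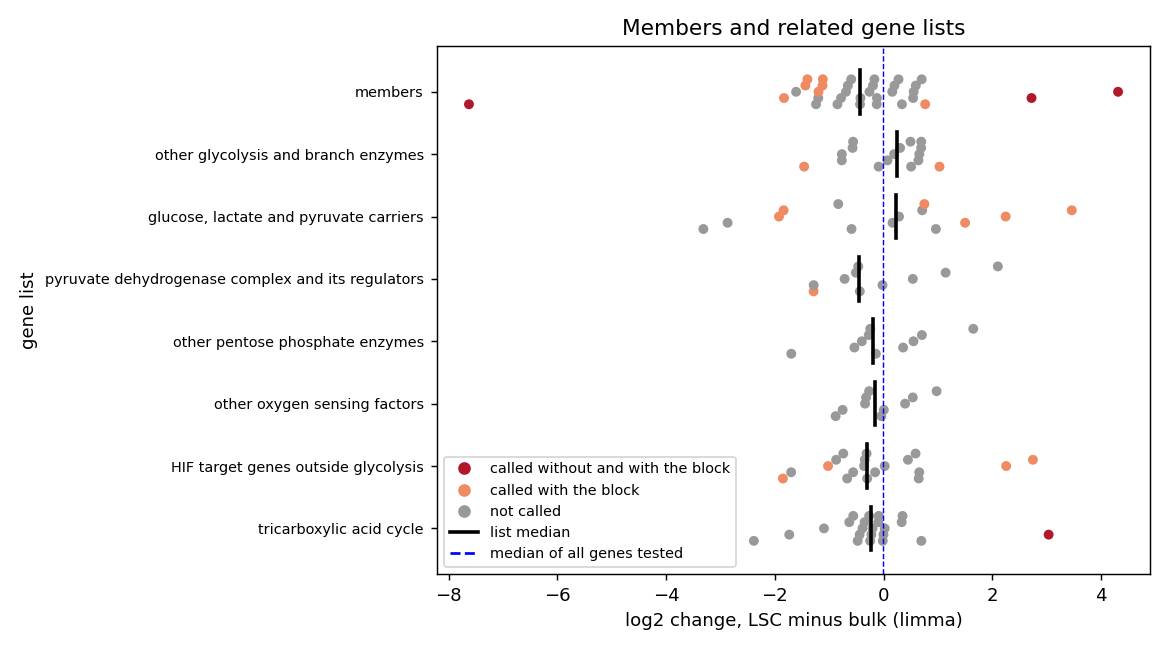
Log2 change, LSC minus bulk, of every tested gene in the members and in 7 related lists, with black bars at list medians and a dashed line at the median of all genes tested. Medians lie between -0.45 and 0.25; single genes stand far from them, among them PKLR, EGLN3 and PFKFB2 in the members and IDH3A in the tricarboxylic acid cycle.

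In the authors' deposited table, which codes its change as bulk minus LSC, all 33 members had the direction found here, as they come from the same libraries. In the authors' deposited table PKLR, EGLN3 and PFKFB2 had false discovery rates of 0.0813, 0.0867 and 0.108, and no member was under 0.05.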

How the data were processed

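RNA from 6 sorted populations was amplified with a NuGEN Ovation kit and sequenced, per the labels' protocols. The authors used RSEM, Bowtie2, edgeR and hg19, per the submitters' processing notes, which give neither roles nor versions. The organism label names the mouse host, while the symbols are human. The authors' deposited values are log2 CPM with a small prior, read from a floor of 0.0197 CPM common to all libraries. The deposited table also holds the authors' log2 fold change, p-value, likelihood ratio (a score) and false discovery rate, per the file headers.

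CPM was recovered by subtracting the floor, and reads by dividing by the smallest step and rounding. Before rounding, reads were whole within 0.1 for 100% of the values checked, and the check left out the highest values. A value of 3 reads was 0.190 to 0.514 CPM. The test of LSC against bulk was limma 3.58.1 under R 4.3.3 (trended eBayes, two-sided), fitted to the deposited log2 values of 13755 genes. A gene needed 1 CPM or more in 3 or more libraries, which left out 137. P-values were adjusted by Benjamini-Hochberg over all 13755 genes, with a threshold of 0.05. Ratios were compared with an exact permutation test. The code was tested on simulated data.

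Equal replicate numbers mark libraries of one mouse, per the labels, and their deviations from group means correlated at 0.33, 0.35 and 0.30 in mice 1, 2 and 3, so the number pairs the samples. The main fit has no block, and blocked values are printed where they change a call. Members, lists, pairs and tests were chosen with earlier results of these data known. Values in each library are given for members past the threshold in either fit and their isozymes; from each other list, up to 4 genes past it are named, and any further gene was picked with its values in view. Sequences and coordinates are not used here.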

Additional observations from a re-analysis of the deposited data

How the results depend on the processing

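With the mouse as a replicate block, 1135 genes were higher and 1060 lower, 3 members were higher and 7 lower, and calls numbered 2 among other glycolysis and branch enzymes, 6 among carriers, 1 in the pyruvate dehydrogenase list and 4 among HIF targets; it changed no other list count. eBayes without trend gave 197 genes higher and 54 lower. Pseudocounts of 1 and 5 CPM gave 302 and 280 genes lower, 2 members lower each and 1 carrier each, and 5 CPM moved the members' median to -0.24. A filter of 5 CPM left 0 members lower, since PKLR was not tested. PFKFB4 had a change of 0.0185 with voom on recovered reads. Differences in ratio at 1 and 5 CPM were -0.0084 and -0.12 for HK2 to HK1, 0.31 and 0.54 for HK3 to HK1, and 0.0218 and 0.0856 for PFKP to PFKL; PKLR to PKM was 0.36 at 5 CPM.

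Leaving out single libraries or mice gave 37 to 346 genes higher and 0 to 169 lower, 0 to 2 members higher, 0 to 3 members lower, 0 to 1 call each among other glycolysis enzymes and carriers, and a median member change of -0.48 to -0.10. The lowest counts over all genes came without both libraries of mouse 1, which also left no member higher; no member was lower without bulk replicate 1, bulk replicate 2, or both libraries of mouse 1 or mouse 2. Changes crossed 0 for GPI (-0.26 to 0.67), PFKFB3 (-0.42 to 0.76), PFKFB4 (-0.93 to 0.35), ALDOA (-0.95 to 0.0746), PDHA1 (-0.43 to 0.0912), PDHB (-0.16 to 0.78), PDK3 (-0.51 to 0.12), TALDO1 (-0.34 to 0.15) and EGLN2 (-0.0839 to 0.66), none of which passed in the full data. Ratio differences crossed 0 for HK2 to HK1 (-0.68 to 0.95), HK3 to HK1 (-0.81 to 0.53), PFKP to PFKL (-0.67 to 0.93), PFKFB4 to PFKFB3 (-1.14 to 0.26) and PDHB to PDHA1 (-0.0042 to 1.07). Of 589 values of single members over 18 alternatives, 549 kept their direction and side of the threshold. The cause was not tested. Low reads limit PKLR, HK3, PFKM and PFKFB4, and the bulk values of EGLN2, EGLN3 and SLC2A8.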
